A study of Oryza sativa with 10 samples.

Results

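The peaks of 2 histone marks, H3K27me3 and H3K36me3, were compared in leaves of TQ (Teqing), an inbred indica variety of rice. All peaks of the TQ list of each mark were taken, 8385 for H3K27me3 and 9870 for H3K36me3, which is 18255 of the 93054 peaks of the series. The series holds 10 ChIP-seq libraries, 1 for each mark in each of 5 genotypes: the inbred varieties TQ, GL (Guangluai-4) and 93-11 (Yangdao-6) and the first-generation hybrids GL×TQ and GL×93-11, which here serve only to see where TQ differs. Every genotype was untreated, and the second fully expanded leaf was taken at the stage of secondary branch differentiation, with the leaves of 3 plots pooled before the immunoprecipitation. A leaf holds many cell types, and a place with peaks of both marks may carry them in the same cells or in different cells. Pooling leaves 1 library per mark with no replicate, so no test between the marks was made, and how far such values vary between plants is unknown. Reads of this indica variety were mapped to Nipponbare, a japonica variety. Coordinates are those of that genome as deposited, in a build that the sources used here do not give, and no gene names are attached to the peaks.

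H3K27me3 is the trimethylation of lysine 27 of histone H3. In plants it is written by Polycomb proteins with methyltransferase activity, marks genes that are kept silent in a tissue or at a stage, and typically covers a gene body from end to end. H3K36me3, the trimethylation of lysine 36, is written along with transcription, and lies over the bodies of genes that are transcribed. In biochemical work with animal proteins the Polycomb enzyme is inhibited on histone tails that already carry methylation of lysine 36, and the marks are known for lying on different genes. The lists below show how far this separation reaches in base pairs, between neighbours and along chromosomes in TQ.

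The lists carried their labels in the sense that each mark of TQ followed the same mark of the other genotypes. Over the 3712 full windows of 100 kb, the peak numbers of TQ and another genotype had a Spearman correlation of 0.779 to 0.862 for H3K27me3 and 0.872 to 0.925 for H3K36me3, against 0.064 between the marks within TQ. Peaks held 3378454 tags for H3K27me3, 9.29% of the uniquely mapped reads of that library, and 7065157 tags for H3K36me3, 14.2%. The H3K36me3 library was the deeper of the pair. Each peak has a score, -log10 of the p-value of the peak caller MACS multiplied by 10, and scores of 100 or more were reached by 62.4% of the H3K27me3 peaks and 74.1% of the H3K36me3 peaks. Of 29 measures of the marks and of their relation, 0 set TQ apart from the other 4 genotypes by Dixon's criterion.

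H3K36me3 peaks were longer than H3K27me3 peaks. The median length was 1859 bp for H3K27me3 (95% interval of the median 1833 to 1884, quartiles 1300 and 2591, n = 8385) and 2638.5 bp for H3K36me3 (2612 to 2667, quartiles 1717.5 and 3288, n = 9870), a ratio of 1.42. Intervals of medians come from binomial order statistics and shares carry 95% Wilson intervals; both cover counting error only, since the peaks of a list are not replicates. The shapes of the distributions also differed. H3K27me3 lengths had a single crest at 1000 to 1249 bp, which held 14.2% of the peaks, and thinned out steadily above it. H3K36me3 lengths had a small crest in the same class, with 7.70% of the peaks, a dip to 5.57% at 1750 to 1999 bp, and a second and higher crest at 3000 to 3249 bp with 9.85%. As a result 36.3% of the H3K36me3 peaks (35.4% to 37.3%) and 15.7% of the H3K27me3 peaks (14.9% to 16.5%) measured 3000 bp or more. The upper ends lay close together, with longest peaks of 4532 bp for H3K27me3 and 4401 bp for H3K36me3.

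**Figure D1:**
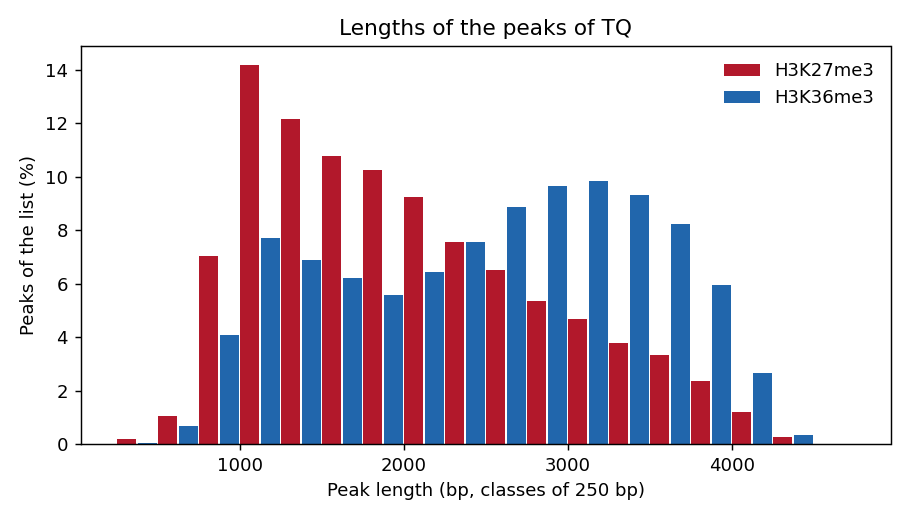
Share of the TQ peaks of each mark (y axis, % of the list) by peak length (x axis, bp, in classes of 250 bp), with H3K27me3 in red and H3K36me3 in blue and no error bars. H3K27me3 has 1 crest at 1000 to 1249 bp with 14.2% of its peaks, and H3K36me3 has crests of 7.70% in that class and of 9.85% at 3000 to 3249 bp.

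H3K36me3 peaks also held more tags per kb, by an amount that depends on the scale. The median was 162.0 tags per kb for H3K27me3 (95% interval 160.5 to 163.4) and 268.4 for H3K36me3 (266.1 to 270.8), a ratio of 1.66. Divided by the uniquely mapped reads of each library in units of 1000000, which is written RPKM here, the medians were 4.45 and 5.39, a ratio of 1.21, with quartiles of 3.62 and 5.79 for H3K27me3 and 3.99 and 6.51 for H3K36me3. On this scale the quartile ranges overlapped over most of their width. With all tags of a list divided by all its kb, the levels were closer still, at 5.51 and 5.68 RPKM. Divided instead by the tags within peaks of the own list, the direction turned, with a ratio of 0.793. The highest levels were those of H3K27me3, up to 697 tags per kb against 570 for H3K36me3. The fold enrichment, the ratio of a peak over its local background as MACS computed it, had a higher median in H3K27me3, 3.19 against 2.87.

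Within each mark the longer peaks were denser in tags and lower in fold enrichment. For H3K27me3, the median rose from 117 tags per kb in the 692 peaks under 1000 bp to 245 in the 1316 peaks of 3000 bp or more, while the median fold fell from 3.68 to 2.70. For H3K36me3 the same classes, of 475 and 3586 peaks, had 157 and 320 tags per kb and folds of 3.57 and 2.51. Across peaks, the Spearman correlation of length with tags per kb was 0.71 in both lists (n = 8385 and 9870), and that of length with fold was -0.41 for H3K27me3 and -0.62 for H3K36me3. Length, tags and fold come from the same reads of a peak, so these correlations are descriptions. Within a length class the marks stayed near each other in RPKM: medians were 3.87 for H3K27me3 and 3.71 for H3K36me3 at 1000 to 1999 bp, and 6.75 and 6.43 at 3000 bp or more. H3K36me3 was the lower of the pair in these classes as well as under 1000 bp, at 3.14 against 3.23, and the higher at 2000 to 2999 bp, at 5.55 against 5.18.

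The position of the summit within a peak, the base with the most tags, differed as well. Its distance from the middle of the peak had a median of 22.2% of the half-length in H3K27me3 (95% interval 21.6% to 22.7%) and 33.8% in H3K36me3 (33.2% to 34.4%). The difference grew with length. Under 1000 bp the medians were 14.4% and 17.2%, and at 3000 bp or more they were 25.7% and 44.6%. Long H3K36me3 peaks thus had their densest base nearer an end than long H3K27me3 peaks did.

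The peaks with the highest scores show the range of each list. For H3K27me3 the highest score was 1495.11, at a peak of 1122 bp with a fold enrichment of 7.5 and 476 tags (95% Poisson interval 434.2 to 520.7), on chromosome 12 from 26932913 to 26934034. The next were on chromosome 9 from 8297407 to 8298407 (score 1396.11, 439 tags) and on chromosome 12 from 17288422 to 17290068 (score 1388.2, 770 tags). For H3K36me3 the highest score, 923.48, was lower than these, at a peak of 2226 bp with a fold of 3.12 and 900 tags (842.2 to 960.8), on chromosome 11 from 12366019 to 12368244. It was followed by chromosome 8 from 11048809 to 11050663 (895.19, 668 tags) and chromosome 9 from 4677494 to 4679004 (879.98, 458 tags). Of these 6 peaks, 5 had a peak of their mark in all 4 other genotypes, and the H3K27me3 peak ending at 17290068 in 3. The longest peaks were weak by score in both marks. For H3K27me3, the peaks of 4532 and 4502 bp on chromosome 8 from 15602547 to 15607078 and from 744304 to 748805 and that of 4466 bp on chromosome 5 from 19132297 to 19136762 scored 50.81 to 54.44. Their levels were high, 394.8 to 506.6 tags per kb, with folds of 2.08 to 2.3. For H3K36me3, the longest peaks, on chromosome 1 from 38195569 to 38199969 and from 8924271 to 8928659 and on chromosome 11 from 21417888 to 21422249, scored 51.52 to 62.33, at 337.5 to 399.9 tags per kb and folds of 1.82 to 2.58. The H3K36me3 peak ending at 8928659 had a counterpart in 0 of the 4 other genotypes.

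H3K36me3 peaks stood closer to each other than H3K27me3 peaks. The median spacing, from the end of a peak to the start of the next of the same mark, was 22849 bp for H3K27me3 (95% interval 22095 to 23680, n = 8373) and 17687.5 bp for H3K36me3 (17052 to 18324, n = 9858). Spacings under 10 kb made up 29.6% of those of H3K27me3 (28.7% to 30.6%) and 35.5% of those of H3K36me3 (34.5% to 36.4%). Spacings over 50 kb made up 28.4% and 20.7%. Peaks of the same mark rarely touched: 128 spacings of H3K27me3 (1.53%) and 181 of H3K36me3 (1.84%) were under 500 bp. In the 4 other genotypes the H3K27me3 median exceeded that of H3K36me3 by factors of 1.09 to 1.33, and in TQ by 1.29. The H3K36me3 list of TQ is the larger, and a larger list has closer peaks. With only the 5000 peaks of highest score of each mark, the medians were near each other, at 42609.5 bp for H3K27me3 and 40755 bp for H3K36me3.

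Each mark had its own kind closer at hand than the other mark. From an H3K27me3 peak, the nearest other H3K27me3 peak was at a median of 10187 bp (95% interval 9744 to 10630) and the nearest H3K36me3 peak, overlaps counted as 0, at 12368 bp (11709 to 12894). From an H3K36me3 peak, the medians were 7640 bp to its own kind (7386 to 7934) and 14210 bp to H3K27me3 (13830 to 14755). The nearest peak of any kind was of the same mark for 53.0% of the H3K27me3 peaks (51.9% to 54.1%), where the sizes of the lists alone would give 45.9%. For H3K36me3 it was 59.9% (59.0% to 60.9%), where the sizes would give 54.1%. The distance to the other mark was thus longer from H3K36me3, the mark with fewer peaks of the other kind to find. With only the 5000 peaks of highest score of each mark, which makes the lists equal in size, this order turned, at 25525 bp from H3K27me3 and 24335 bp from H3K36me3. Few peaks were far from the other mark: 352 H3K27me3 peaks (4.20%) and 193 H3K36me3 peaks (1.96%) were over 100 kb away.

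Overlap between the marks was rare and covered fewer bases than the cover of each mark along the chromosomes. H3K36me3 peaks covered 6.71% of the 371.8 Mb up to the last peak of each chromosome, and H3K27me3 peaks covered 4.54%. Counting 1 shared bp as overlap, 561 H3K27me3 peaks (6.69%, 95% interval 6.18% to 7.25%) and 564 H3K36me3 peaks (5.71%, 5.27% to 6.19%) overlapped the other mark, in 565 pairs. A peak has many bases with which to touch another, so the bases are the fairer measure. The pairs shared 607898 bp, which is 3.60% of the bases under H3K27me3 against the 6.71% of all bases that lie under H3K36me3, a ratio of 0.54. Seen from the other side, it is 2.44% of the bases under H3K36me3 against 4.54% of all bases. The percentages of all bases include bases to which no read could be uniquely mapped. The share was alike for H3K27me3 peaks of all strengths, 6.61% for scores under 100, 6.75% from 100 to 200 and 6.73% from 200 up. For H3K36me3 it was 7.01% (6.08% to 8.06%) under 100, 5.38% from 100 to 200 and 5.16% (4.50% to 5.90%) from 200 up. With a limit of 200 on both marks the ratio was 0.757.

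The low cover of the other mark ended within a few kb of the summits. Around H3K27me3 summits, H3K36me3 covered 4.65% of the bases within 250 bp, 2.93% at 500 to 1000 bp, 2.85% at 1000 to 1500 bp and 5.43% at 2000 to 3000 bp. At 3000 to 4000 bp it was 6.95%, at the chromosome level of 6.71%. Around H3K36me3 summits, H3K27me3 covered 4.22% within 250 bp, 2.71% at 1000 to 1500 bp and 4.58% at 3000 to 4000 bp, where the chromosome level is 4.54%. The lowest cover was therefore not at the summit but about 1 kb from it, on both sides of the comparison. From 3 to 50 kb the other mark stayed between 0.966 and 1.07 times its chromosome level. Cover by the same mark was raised over that whole range, at 8.17% for H3K27me3 and 12.6% for H3K36me3 at 4000 to 5000 bp, and still 5.13% and 8.49% at 30000 to 50000 bp.

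**Figure D2:**
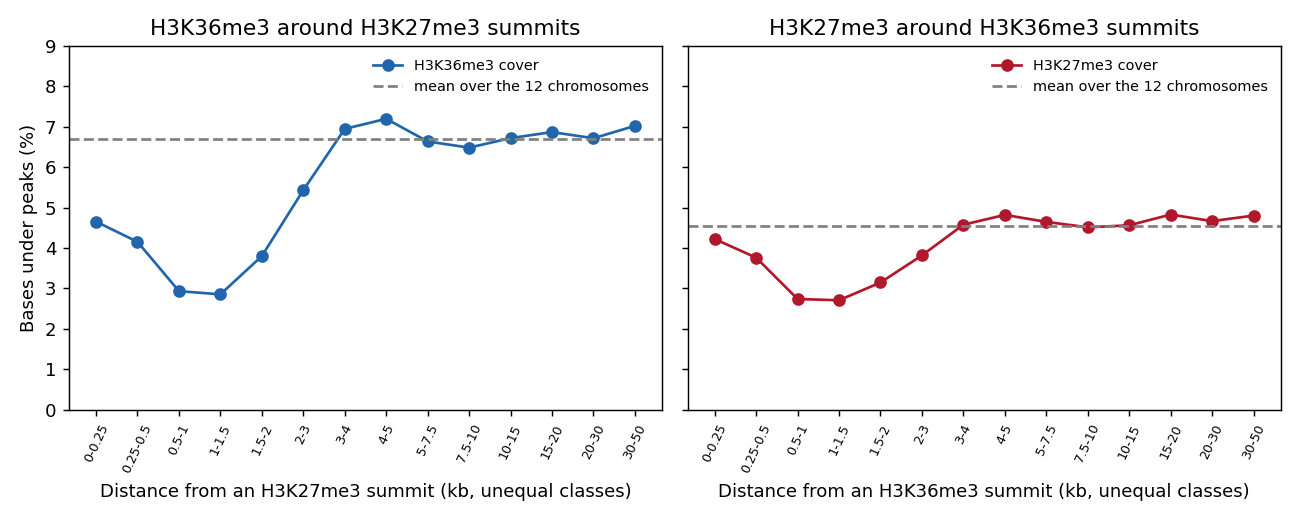
Bases under peaks of the other mark (y axis, %) by distance from the summits of H3K27me3 (left panel, H3K36me3 cover) and of H3K36me3 (right panel, H3K27me3 cover), with both sides of the summit pooled in distance classes of unequal width (x axis, kb); the dashed line is the mean over the 12 chromosomes and there are no error bars. Both curves are lowest at 1 to 1.5 kb, at 2.85% and 2.71%, higher at the summit itself, and back at the dashed line from 3 kb.

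The overlapping pairs ranged from close matches to edge contacts. The median pair shared 1031 bp (quartiles 591 and 1430, lowest 4, highest 3901), and this was a median of 99.8% of the shorter peak. In 167 pairs the H3K36me3 peak lay wholly inside the H3K27me3 peak and in 110 pairs the reverse held. The summits of a pair were a median of 214 bp apart. In 219 pairs (38.8%, 95% interval 34.8% to 42.8%) they were within 100 bp, in 16 of these on the same base, and these 219 held 46.3% of all shared bases. In 165 pairs both edges matched within 200 bp. At the other end, 51 pairs had summits over 2000 bp apart, long peaks of a median of 2723 bp for H3K27me3 and 2982 bp for H3K36me3 that met over a median of 121 bp.

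**Figure D3:**
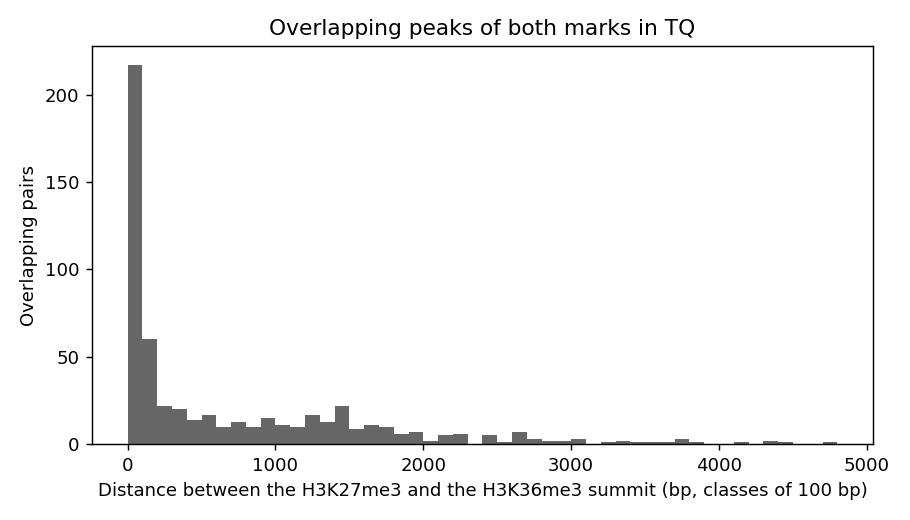
Number of overlapping pairs of an H3K27me3 and an H3K36me3 peak of TQ (y axis) by the distance between their summits (x axis, bp, in classes of 100 bp), 565 pairs in all. The first class stands far above the others, and 219 pairs have summits within 100 bp.

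The close matches were short peaks of high fold enrichment. Pairs with summits within 100 bp had median lengths of 1341 bp in H3K27me3 and 1282 bp in H3K36me3 and median folds of 3.82 and 3.63, above the medians of 3.19 and 2.87 of the whole lists. Their median levels were 4.27 and 3.72 RPKM, below the medians of 4.45 and 5.39 of the whole lists. Level and fold change with length, however. All peaks of 1000 to 1999 bp had medians of 3.87 and 3.71 RPKM and folds of 3.39 and 3.40. Against peaks of that length the close matches were not lower in level, and their folds were higher by less. They were also the pairs found most often elsewhere. Of the 219, 104 (47.5%, 41.0% to 54.1%) shared bases with a place under both marks in all 4 other genotypes. Of the 51 pairs with summits over 2000 bp apart, 12 did (23.5%, 14.0% to 36.8%). A short shared stretch is more easily missed by this measure, and the median stretches were 1127 bp and 121 bp. The class next to the close matches, with summits up to 500 bp apart, had a median stretch of 1175 bp. Of its 114 pairs, 35 did (30.7%, 22.98% to 39.68%). How far the length of the stretch sets these shares was not tested. The classes of summit distance were chosen after values had been seen. The sources used here name no input library for the peak calling, so signal that is present whatever the antibody cannot be told apart from the presence of both marks.

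Overlap fell with the length of a peak in both marks, and further in H3K36me3. Of the H3K36me3 peaks under 1000 bp, 76 of 475 overlapped H3K27me3 (16.0%, 95% interval 13.0% to 19.6%). The share was 10.4% at 1000 to 1999 bp, 4.24% at 2000 to 2999 bp, and 2.23% (1.80% to 2.77%) in the 3586 peaks of 3000 bp or more, even though longer peaks have more bases with which to meet another. In bases the contrast was wider, with 13.5% of the bases of H3K36me3 peaks under 1000 bp and 0.572% of those of 3000 bp or more lying under H3K27me3, around the chromosome level of 4.54%. H3K27me3 peaks overlapped in 11.0% of cases under 1000 bp (8.86% to 13.5%) and in 6.24%, 6.53% and 6.08% in the longer classes, which differ little among themselves. The share of their bases under H3K36me3 went from 9.03% under 1000 bp through 4.37% and 3.31% to 2.30% at 3000 bp or more. The long H3K36me3 peaks, those of the second crest of lengths, were therefore the most separate from H3K27me3.

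In length and level the overlapping H3K36me3 peaks differed from the rest of their list more than the overlapping H3K27me3 peaks did from theirs. Overlapping H3K36me3 peaks had a median length of 1596.5 bp (95% interval 1511 to 1691, n = 564) against 2686 bp (2657 to 2714, n = 9306). Their median level was 3.96 RPKM (3.83 to 4.14) against 5.47 (5.41 to 5.52). Level rises with length, and all H3K36me3 peaks of 1000 to 1999 bp had a median of 3.71 RPKM. The difference in level is therefore not separate from that in length. For H3K27me3 the lengths were 1801 bp (1682 to 1900, n = 561) and 1865 bp (1835 to 1889, n = 7824) and the levels 4.39 and 4.46 RPKM, with overlapping intervals. In the pairs themselves the level of H3K36me3 was a median of 0.897 times that of H3K27me3 in RPKM, and higher than it in 201 of 565 pairs. Both peaks scored 100 or more in 263 pairs (46.5%). Overlapping peaks were also somewhat more isolated from their own kind, with medians to the nearest peak of the same mark of 13007 bp against 9978 bp for H3K27me3 and 10853.5 bp against 7530 bp for H3K36me3.

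Most places with both marks in TQ had both marks in another genotype. Of the 565, 384 (68.0%, 64.0% to 71.7%) shared bases with such a place in GL×TQ, the hybrid of TQ, 345 (61.1%) in GL×93-11, 339 (55.9% to 64.0%) in GL and 317 (56.1%) in 93-11. All 4 had it for 205 places (36.3%, 32.4% to 40.3%) and 0 of 4 for 78 (13.8%). Overlapping H3K36me3 peaks were found as peaks of their mark in 93-11 in 76.4% of cases (72.7% to 79.7%) against 84.4% (83.6% to 85.1%) of the others, and in GL×93-11 in 80.1% (76.7% to 83.2%) against 84.9% (84.1% to 85.6%). In GL, at 76.8% against 80.5%, and in GL×TQ, at 84.0% against 86.8%, the intervals overlapped. For H3K27me3 the intervals overlapped in all 4 genotypes, with shares of 74.0% to 83.8% for overlapping peaks and 75.8% to 83.2% for the others. H3K27me3 of TQ overlapped H3K36me3 of GL in 7.47% of its peaks (6.92% to 8.05%), of GL×93-11 in 7.32%, of GL×TQ in 6.45% and of 93-11 in 6.06% (5.57% to 6.59%), so that its own H3K36me3 list at 6.69% stood in the midst of the lists of other plants.

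The places with the most bases under both marks were nearly whole peaks. The longest was on chromosome 12 from 20632030 to 20635930, with 3901 bp. There the H3K27me3 peak had 1006 tags and a score of 80.02, the H3K36me3 peak 1283 tags and a score of 100.29, the summits were 16 bp apart, and all 4 other genotypes had both marks. On chromosome 10 from 5421649 to 5425185, 3537 bp were shared by peaks that started on the same base and had the same summit, with 581 and 573 tags. The next 3 were on chromosome 3 from 7791530 to 7795000 (3471 bp, summits 529 bp apart), chromosome 6 from 15083065 to 15086516 (3452 bp, 1102 bp apart) and chromosome 10 from 8589140 to 8592467 (3328 bp, 965 bp apart). These 3 had both marks in 1, 4 and 2 of the other genotypes. The third highest H3K36me3 score of the list was such a place. The H3K36me3 peak on chromosome 9 from 4677494 to 4679004 lay on an H3K27me3 peak from 4677493 to 4679004 with 335 tags and a score of 627.96. The summits were 1 bp apart, the folds were 5.84 for H3K27me3 and 5.89 for H3K36me3, the levels 6.09 and 6.08 RPKM, and all 4 other genotypes had both marks.

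At 100 kb each mark was present in most windows, 83.5% for H3K27me3 and 83.4% for H3K36me3. Shares this high by themselves leave most windows with both marks. Few windows were dense in both. Of 3712 full windows, 2657 (71.6%, 95% interval 70.1% to 73.0%) held peaks of both, 443 (11.9%) H3K27me3 only, 438 (11.8%) H3K36me3 only and 174 (4.69%) neither. A window held a mean of 2.26 H3K27me3 and 2.65 H3K36me3 peaks, with variances of 1.43 and 1.68 times the mean. By other measures the marks were alike: the 371 densest windows of each held 26.2% of the H3K27me3 and 25.9% of the H3K36me3 peaks, and 16.5% and 16.6% of the windows had no peak of the mark. With 5 or more peaks counted as dense, 425 windows were dense in H3K27me3, 719 in H3K36me3 and 63 in both. H3K36me3 was dense in 14.8% of the windows dense in H3K27me3 (11.8% to 18.5%) and in 20.0% of the rest (18.6% to 21.4%). These intervals treat windows as independent, which was not tested, so they give no verdict on the difference.

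The mean number of H3K36me3 peaks did not follow that of H3K27me3 in a line. It was 2.20 in the 612 windows without H3K27me3, between 2.75 and 2.89 in those with 1 to 4 H3K27me3 peaks, and 2.48 and 2.35 in the 229 and 119 windows with 5 and 6. In the 77 windows with 7 or more it was 2.66. The windows without H3K27me3 also most often lacked H3K36me3, 28.4% of them against 11.6% to 19.3% in the other classes. The Spearman correlation over the 3712 windows was 0.064 and Pearson's r 0.034. The points share the mappable length of a window, which was not measured. Leaving out the windows with neither mark, a choice made on the counts themselves, gave a Spearman correlation of -0.045. Over all windows the value rose with window size: 0.017 at 50 kb, 0.129 at 200 kb, 0.242 at 500 kb, 0.346 at 1 Mb (n = 366) and 0.427 at 2 Mb (n = 179). The 4 other genotypes had 0.067 to 0.115 at 100 kb and 0.324 to 0.420 at 1 Mb. Smaller windows hold fewer peaks, and the part of this in the lower values was not tested.

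**Figure D4:**
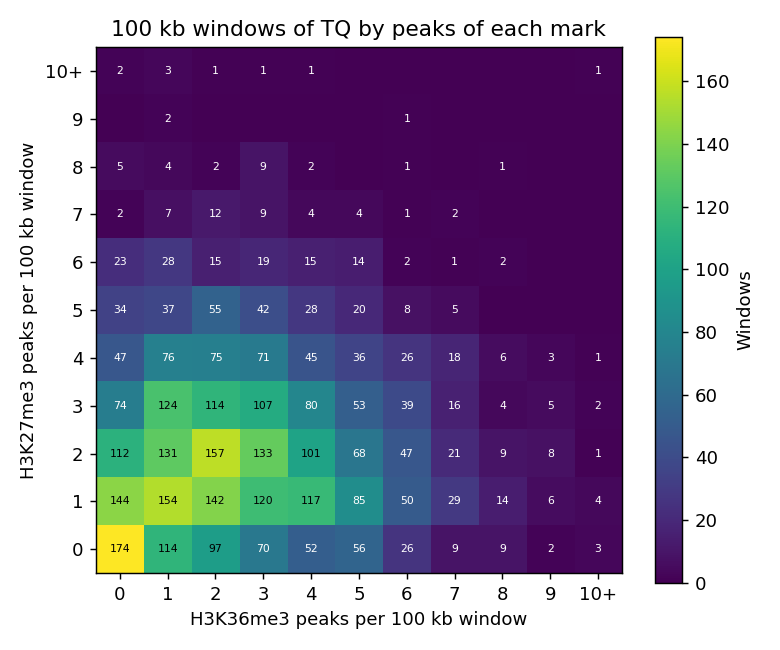
Number of full 100 kb windows (colour and printed number) by their count of H3K36me3 peaks (x axis) and of H3K27me3 peaks (y axis) in TQ, with counts of 10 or more pooled. The 174 windows with neither mark are the fullest cell. Windows with 5 or more peaks of a mark make up 11.4% of all windows for H3K27me3 and 19.4% for H3K36me3.

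Along the chromosome, neighbours were of the same mark more often than the list sizes give. With all 18255 peaks ordered by their middle, 10418 of 18243 neighbouring pairs (57.1%, 95% interval 56.4% to 57.8%) carried the same mark. The other genotypes had 55.1% to 57.2%. The sizes of the whole TQ lists would give 50.3%. Taken by chromosome, the sizes would give at most 51.95%, on chromosome 3, where 57.06% of the neighbouring pairs carried the same mark. Runs of a single mark stayed short: H3K27me3 formed 3918 runs with a mean of 2.14 peaks and H3K36me3 3919 runs with a mean of 2.52. Runs of 10 or more peaks numbered 38 for H3K27me3, over a median of 296102 bp, and 60 for H3K36me3, over a median of 160870 bp. Long runs of H3K36me3 were thus more frequent and more compact, while the longest of all was of H3K27me3, 24 peaks against 17. The larger list gives longer and more frequent runs by its size alone, and that part was not removed here.

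The chromosomes differed in H3K36me3 far more than in H3K27me3. H3K36me3 went from 34.6 peaks per Mb on chromosome 3 to 18.9 on chromosome 11, while H3K27me3 went from 24.8 per Mb on chromosome 11 to 20.5 on chromosome 5. Chromosome 11 was thus the lowest in one mark and the highest in the other. There were 1.49 H3K36me3 peaks per H3K27me3 peak on chromosome 3 and 0.762 on chromosome 11. H3K27me3 peaks outnumbered those of H3K36me3 on chromosomes 10, 11 and 12 only. The median H3K36me3 peak was also longest on chromosome 3, at 2799 bp, and shortest on chromosome 11, at 2301 bp, whereas H3K27me3 medians stayed between 1765 and 1956.5 bp.

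Within the chromosomes H3K36me3 gathered toward the ends and H3K27me3 lay more evenly. Each chromosome was cut into 10 equal parts, numbered from its first base, and the 12 chromosomes were pooled. H3K36me3 had 32.4 peaks per Mb in part 1, 15.7 in parts 4 and 5, 37.4 in part 9 and 37.0 in part 10. H3K27me3 had 22.5 in part 1, 16.8 in part 4, its highest value of 27.3 in part 7 and 23.9 in part 9. There were 1.44 H3K36me3 peaks per H3K27me3 peak in part 1, 0.873 in part 5 and 1.56 in part 9. In parts 9 and 10 H3K36me3 outnumbered H3K27me3 on 11 of 12 chromosomes, and in part 5 on 4. Both marks were lowest in parts 4 and 5.

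**Figure D5:**
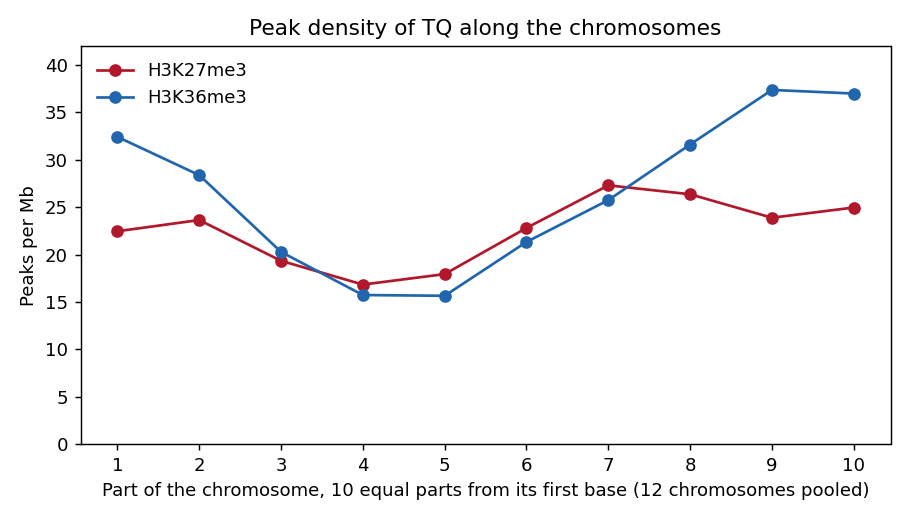
Peaks per Mb (y axis, from 0) of H3K27me3 (red) and H3K36me3 (blue) in 10 equal parts of the chromosomes (x axis, numbered from the first base to the last peak, 12 chromosomes pooled), without error bars. H3K36me3 ranges from 15.7 to 37.4 peaks per Mb with its highest values in parts 9 and 10, and H3K27me3 from 16.8 to 27.3 with its highest in part 7.

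A single window held an unusual number of both marks. The window of chromosome 12 from 13300001 to 13400000 had 13 H3K27me3 and 14 H3K36me3 peaks, the most of H3K27me3 in any full window and the second most of H3K36me3. All 13 H3K27me3 peaks overlapped an H3K36me3 peak, with a median of 36 bp between summits and at most 392 bp. They were short, with medians of 858 bp for H3K27me3 and 870 bp for H3K36me3, and their scores ran from 52.65 to 272.75 and from 54.94 to 348.99. The other genotypes had 13 to 14 H3K27me3 and 13 to 15 H3K36me3 peaks there, and 11 of the 13 overlaps were in all 4. Chromosome 12 had the highest share of overlapping peaks, 10.3% of H3K27me3 (8.18% to 12.9%) and 10.8% of H3K36me3. Without this window the shares were 8.44% (6.51% to 10.9%) and 8.88%, a comparison chosen after the values had been seen. Next by the number of the rarer mark came chromosome 1 from 39100001 to 39200000, with 8 peaks of each mark, and chromosome 5 from 28200001 to 28300000, with 7 of each, tied in number with 1 other window and taken as the first in genome order.

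The other windows with the most peaks of a mark held fewer of the other. They were chosen by the highest count of 1 mark, so this order follows largely from the choice. Over all windows the mean was 2.26 H3K27me3 and 2.65 H3K36me3 peaks. Chromosome 5 from 23300001 to 23400000 had 11 H3K27me3 and 4 H3K36me3 peaks, and the other genotypes had 9 to 11 and 3 to 4. Chromosome 12 from 19300001 to 19400000 had 11 H3K27me3 peaks and 1 H3K36me3 peak, and here TQ had more H3K27me3 than the others, which had 3 to 9. For H3K36me3, chromosome 1 from 3800001 to 3900000 had 15 peaks over 35418 bp beside 2 of H3K27me3, with 12 to 13 H3K36me3 peaks in the others. Chromosome 3 from 3700001 to 3800000 had 12 peaks over 31429 bp beside 1 of H3K27me3, with 10 to 11 in the others. In each of these 4 windows the order of the marks was the same in all 5 genotypes.

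The longest run of H3K27me3 and the widest spacing of H3K36me3 were the same place. These measures are not independent, since a run has no H3K36me3 peak between its members. Long distances to H3K36me3 likewise need a wide spacing. The run of 24 H3K27me3 peaks lay on chromosome 12 from 16378864 to 17290068, inside the widest spacing of H3K36me3, 965898 bp from 16374693 to 17340590. It ended with the peak that had the third highest H3K27me3 score, and it held the H3K27me3 peaks farthest from H3K36me3, from 16860618 to 16861568 and from 16866426 to 16867888, at 479022 and 472702 bp. Each of these farthest peaks had a peak of its mark in only 1 of the 4 other genotypes. In the run's span the other genotypes had 21 to 27 H3K27me3 and 2 to 4 H3K36me3 peaks, so that the full absence of H3K36me3 held for TQ only. The H3K27me3 peak next in distance, 371136 bp, was on chromosome 4 from 3184594 to 3185929, within the third widest spacing of H3K36me3, from 2774732 to 3557065. The second widest, 885646 bp, was on chromosome 6 from 18062492 to 18948137. The second run of H3K27me3, 21 peaks, was on chromosome 2 from 21610045 to 21919900, over 309856 bp, with 17 to 22 H3K27me3 peaks and 0 to 1 of H3K36me3 in the others.

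The widest spacings of H3K27me3 were poor in both marks. The widest, 801102 bp on chromosome 3 from 19254614 to 20055715, held 6 H3K36me3 peaks, and the next, on chromosome 12 from 11394017 to 12086033 and on chromosome 5 from 11911464 to 12562942, held 5 each. Among them were the H3K36me3 peak farthest from H3K27me3, on chromosome 3 from 19678840 to 19679678 at 376037 bp, and the third farthest, on chromosome 12 from 11701721 to 11702801 at 307704 bp. The second farthest was on chromosome 4 from 9984015 to 9985511, at 307893 bp. The farthest and the third farthest scored 73.65 and 62.94, below the H3K36me3 median of 163.14, and the second farthest scored 181.61, above it. The farthest H3K27me3 peaks on chromosome 12 scored 415.83 and 533.52. The runs of 17 H3K36me3 peaks were both elsewhere, on chromosome 1 from 38195569 to 38449560, over 253992 bp, and on chromosome 2 from 23849694 to 24147572, over 297879 bp. The first began with the longest H3K36me3 peak of the list. In the other genotypes these spans held 10 to 16 and 15 to 19 H3K36me3 peaks, and 0 to 2 and 2 to 3 H3K27me3 peaks. In TQ the last H3K36me3 peak of the chromosome 2 run covered an H3K27me3 peak from 24146137 to 24147498. Ordered by its middle, that peak falls after the run.

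The relation between the marks was alike in the 5 genotypes in length and less so in tags. The median H3K36me3 peak was 1.36 to 1.41 times as long as the median H3K27me3 peak in the other genotypes and 1.42 times in TQ. In tags per kb the ratio was 1.30 to 1.42 in the others and 1.66 in TQ, while in RPKM it was 1.25 to 1.51 in the others and 1.21 in TQ. TQ was therefore the highest of 5 on one scale and the lowest of 5 on the other. The share of H3K27me3 peaks overlapping H3K36me3 was 5.98% to 8.81% in the others and 6.69% in TQ. With 1 library per genotype and mark these orders have no test.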

How the data were processed

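ChIP DNA of pooled leaves was sequenced by the authors with 1 library per mark and genotype. They filtered the reads, mapped them uniquely with SOAP2, and called peaks per library with MACS; no input control for this step is named in the sources used here. For every peak the deposited lists hold a tag count, a fold enrichment ratio over local background, and a score whose heading is lost. The score was read as -log10 of the MACS p-value multiplied by 10, since its lowest value is 50, where the authors' threshold lies. Positions, lengths and summits were used as deposited by the authors, except 1 H3K27me3 peak starting before the first base, which was clipped.

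Both TQ lists were used whole. Tags per kb were tag counts divided by length, and RPKM are tags per kb divided by the uniquely mapped reads of the library, as listed with the study, in units of 1000000. A single shared bp counted as overlap. A window holds the peaks whose middle lies in it, and incomplete windows at chromosome ends were left out. With 1 library per mark no test between the marks was made. Dixon's criterion served only to set the values of TQ beside those of the other genotypes. For each mark the regions named are the 3 peaks of highest score, the 3 longest, the 3 farthest from the other mark, the 3 widest spacings, the 3 densest windows, the 2 longest runs, and the chromosomes of highest and lowest density. Beside these stand the 5 places with most shared bases and the 3 windows with most peaks of the rarer mark. The members, measures and lists were chosen with earlier results of these data known. Overlap, distances and windows were tested on simulated data. Computations were run in Python 3.11.15 with pandas 2.3.3, numpy 2.4.6 and scipy 1.17.1, and figures were drawn with matplotlib 3.10.9. Alternatives were limits on the score, equal list sizes, joined peaks, other scales of tags, summits in place of edges, stricter overlaps and other window sizes. Gene annotation and sequence were not used here.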

Additional observations from a re-analysis of the deposited data

How the results depend on the processing

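The 9 measures were recomputed under 55 alternatives; joining peaks less than 500 bp apart kept 7 of the 8 measures it was run on within the interval of the reported value, and the shared bases, which have no interval, were 609920 bp against 607898. In the order of scores of 100 or more, scores of 200 or more and the 5000 highest scores, the H3K36me3 median over the H3K27me3 median was 1.31, 1.27 and 1.29 for length, 1.55, 1.401 and 1.60 for tags per kb, 0.636, 0.498 and 0.956 for spacing (reported: 0.774) and 1.36, 1.74 and 0.953 for distance to the other mark (reported: 1.15). In the same order 5.00%, 3.25% and 3.56% of the H3K27me3 peaks overlapped H3K36me3, the shared bases were 301595, 87409 and 212714 bp, and 56.5%, 25.6% and 49.4% of the windows held both marks. Neighbours of the same mark were 58.3% at scores of 200 or more, where list sizes give 54.2%, and 54.6% for the 5000 highest scores, where equal sizes give 50%. The tags ratio was 1.21 in RPKM, 0.793 relative to the tags in peaks of each list and 1.41 with all tags over all kb. Overlap fell to 5.13% when at least 50% of the shorter peak was required, 5.41% when at least 20% of the peak itself was, and 4.82% for summits within 1 kb. Windows with both marks were 42.8% at 50 kb and 90.9% at 200 kb. The Spearman correlation was 0.017, 0.129, 0.242, 0.346 and 0.427 at 50 kb, 200 kb, 500 kb, 1 Mb and 2 Mb, -0.000311 at scores of 200 or more, and -0.045 over windows with at least 1 peak; the sizes of 500 kb and 2 Mb were chosen after seeing the data. Apart from the limits on peaks, which leave fewer and stronger ones, the cause of these changes was not tested.

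No paired analysis was possible because each mark of TQ has 1 library and no comparison of the marks comes from a test. Places under the calling threshold are not in the lists, and the libraries differ in depth. Intervals cover counting error only, and the spread between plants or between immunoprecipitations is unknown. The longest peaks measure 4532 and 4401 bp, and wider domains cannot be told apart from several peaks.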
